A study of Mus musculus with 91 samples.

Results

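Cspg4, Slitrk6, Timp1, Cpe and Cd200 are 5 of the 16580 genes measured in single stromal cells of mouse bone marrow. They were chosen by measured values of these same cells, in which earlier results had shown them with osteoblast genes, so their level by gate and their tie to those genes are given below as descriptions, with no test. The cells came fresh from crushed bones of C57BL/6 mice, were sorted one by one with their surface fluorescence recorded, and were sequenced as full-length Smart-seq2 libraries. All were sorted as CD45-, Ter119-, Cd41- and CD71-, which leaves out blood cells, as Vibrant Dye+, which leaves out debris, and as VCAM1+, an adhesion molecule of marrow stroma. They fell into 39 VCAM1+CD61+ cells on 2 plates, 40 VCAM1+CD61- cells on another 2 plates, and 9 VCAM1+ cells not split by CD61 (integrin beta 3, the product of Itgb3), of which 8 were on one plate and 1 on another. For 3 more cells the title and the gate label contradict each other, and they enter no comparison. No animal is named and each plate held cells of 1 gate, so each gate counts as 1 sample and a plate cannot be told apart from the cells on it.

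CSPG4, also called NG2, is a membrane proteoglycan known from pericytes, oligodendrocyte precursors and some skeletal stromal cells. SLITRK6 is a leucine-rich-repeat membrane protein known for its part in inner ear and retinal innervation. TIMP1 is a secreted inhibitor of matrix metalloproteinases, and CPE, carboxypeptidase E, trims basic residues from peptide precursors in secretory granules. CD200 is a surface glycoprotein that restrains myeloid cells through its receptor and is used to sort skeletal stem and progenitor cells. Marrow stroma holds CXCL12-abundant reticular (CAR) cells, which make factors that keep blood stem cells, and cells of the osteolineage, which lay down bone matrix and make osteopontin (Spp1) and type I collagen (Col1a1).

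In build GRCm38 (mm10), GENCODE vM21 places Cspg4 at chr9:56865033-56899870 on the plus strand, Slitrk6 at chr14:110748580-110755149 on the minus strand, and Timp1 at chrX:20870166-20874735 on the plus strand. It places Cpe at chr8:64592542-64693054 and Cd200 at chr16:45382135-45409053, both on the minus strand. Timp1 lies inside Syn1, a gene of the opposite strand whose exons do not overlap those of Timp1. RefSeq promoters of the same build, from 250 bases before to 50 after the start, matched 4 of the 5 genes; Cpe is named only. They are shown because these genes shared cells, as described below, and 4 motifs were searched on both strands: the GC box (GGGCGG), a RUNX core (TGTGGT), an AP-1 site (TGANTCA) and a TATA box (TATAAA). Capitals mark the matches, and CCGCCC is the GC box read on the other strand.
Cspg4, chr9:56864854-56865153 (+): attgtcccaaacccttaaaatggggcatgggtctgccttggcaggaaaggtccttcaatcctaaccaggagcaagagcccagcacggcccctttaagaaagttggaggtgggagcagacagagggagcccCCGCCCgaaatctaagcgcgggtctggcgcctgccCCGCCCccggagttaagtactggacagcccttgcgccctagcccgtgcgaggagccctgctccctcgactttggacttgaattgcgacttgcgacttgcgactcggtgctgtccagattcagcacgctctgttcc
Slitrk6, chr14:110755100-110755399 (-): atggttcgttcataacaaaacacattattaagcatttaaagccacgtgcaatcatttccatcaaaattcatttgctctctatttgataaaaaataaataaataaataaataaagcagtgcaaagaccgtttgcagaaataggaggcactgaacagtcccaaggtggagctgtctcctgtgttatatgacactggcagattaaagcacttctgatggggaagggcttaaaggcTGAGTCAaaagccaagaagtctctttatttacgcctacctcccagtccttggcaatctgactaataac
Timp1, chrX:20869916-20870215 (+): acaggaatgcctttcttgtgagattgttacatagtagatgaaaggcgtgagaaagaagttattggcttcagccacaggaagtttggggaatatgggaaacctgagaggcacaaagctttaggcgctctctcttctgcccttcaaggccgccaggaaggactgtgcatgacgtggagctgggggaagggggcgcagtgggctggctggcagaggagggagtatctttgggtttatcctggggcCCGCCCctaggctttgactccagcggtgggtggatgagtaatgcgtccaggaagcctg
Cd200, chr16:45409004-45409303 (-): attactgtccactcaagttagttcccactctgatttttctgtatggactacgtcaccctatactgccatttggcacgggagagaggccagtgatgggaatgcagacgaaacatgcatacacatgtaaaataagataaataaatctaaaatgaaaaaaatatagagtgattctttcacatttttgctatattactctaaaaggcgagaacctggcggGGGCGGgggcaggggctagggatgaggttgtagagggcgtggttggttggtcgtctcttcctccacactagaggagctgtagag

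The 4 promoters had no match in common. Cspg4 held 2 GC boxes, Timp1 and Cd200 held 1 each, and Slitrk6 held none but had the one AP-1 match, 18 bases before its start. A GC box was present in 57.5% of 14239 RefSeq promoters of this length, and an AP-1 match in 5.76%. None of the 4 held the RUNX or TATA letters, which 13% and 8.87% of all promoters held. GC content was 60% for Cspg4, 55% for Timp1, 45% for Cd200 and 38.3% for Slitrk6, beside a median of 59.7% over all promoters.

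The libraries held 507713 to 6702475 counts per cell, with a median of 1887610 in CD61+ cells and 2368340 in CD61- cells, so the CD61- cells were not the shallower ones by total counts. They did have fewer genes detected per cell, with a median of 4002 against 4670 in CD61+ cells. The part of this difference in the shares below was not tested. Levels are given as CPM, a cell's counts scaled to a common total. A summed CPM adds the counts of a gate before dividing. Every interval is an exact 95% one for counting error only, since Smart-seq2 reads are not independent molecules and the spread between animals was not measured. Where a share is 0, the limit given is 3 cells of the number looked at. As a check of the gates, Itgb3 itself had 11.6 summed CPM in CD61+ cells, with a count in 18 of 39, and 0.468 summed CPM in CD61- cells, with a count in 2 of 40. A count in a cell is a detection, and a cell without one may hold RNA below it. Of 14063 genes with enough counts, 8.41% were at least 4-fold higher in summed CPM in CD61+ cells; Cspg4, Slitrk6, Timp1 and Cpe were among them and Cd200 was not, which the choice of the genes had fixed in part.

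Cspg4 was counted in 12 of 39 CD61+ cells (30.8%, 17.0 to 47.6%) and in 1 of 40 CD61- cells (2.5%, 0.0633 to 13.2%). The lone VCAM1+ cell with a count, of 9, had 6.13 CPM. On CD61+ plate 1 the 4 cells with a count had 63.4, 5.96, 0.530 and 0.189 CPM, the last 2 from a single count each. On CD61+ plate 2 the 8 cells had 114, 71.9, 69.4, 35.2, 24.0, 20.7, 19.5 and 15.4 CPM. The single CD61- cell stood at 0.830 CPM, from 2 counts. The level in CD61+ cells was therefore carried by a minority of cells, the other 27 having no count, and on plate 1 a single cell gave 95.3% of the counts. Summed, Cspg4 reached 8.71 and 18.2 CPM on the CD61+ plates, against 0.0379 and 0 CPM on the CD61- plates. The ratio of the summed CPM was 613, with a counting interval of 169 to 5070 that is wide because it rests on 2 CD61- counts. With these raised to a floor of 3 counts, the log2 ratio was 8.68, and it was 7.44 without CD61- plate 1.

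Slitrk6 was counted in 14 of 39 CD61+ cells (35.9%, 21.2 to 52.8%), in 1 of 40 CD61- cells and in 0 of 9 VCAM1+ cells, which allows a share of up to 33.3% of the last. Among CD61+ cells with a count, the lowest had 0.315, the median cell 9.04 and the highest 79.2 CPM, and the one CD61- cell had 2.76 CPM from 7 counts. Most CD61+ cells thus overlapped the CD61- cells at 0. Summed CPM was 9.79 and 7.89 on the CD61+ plates, against 0 and 0.179 on the CD61- plates. The ratio of the gates was 116 (56.1 to 290). The share depended on how much was asked of a cell: at 10 CPM or more it was 17.9% of CD61+ cells and 0% of CD61- cells.

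Timp1, the metalloproteinase inhibitor, was the most abundant of the 5 in CD61+ cells and was not limited to them. It was counted in 21 of 39 CD61+ cells (53.8%, 37.2 to 69.9%), 12 of 40 CD61- cells (30.0%, 16.6 to 46.5%) and 3 of 9 VCAM1+ cells. CD61+ cells ran from 0 through a median of 18.8 to 14249.6 CPM, and CD61- cells from 0 through a median of 0 to 992 CPM. The shares of the gates overlapped within their intervals, while among cells with a count the median was 999 CPM in CD61+ cells and 242 CPM in CD61- cells. Summed, the CD61+ plates had 1088 and 1695 CPM and the CD61- plates 98.2 and 132 CPM, a ratio of 12.3 (12.1 to 12.6) between the gates. The 2 CD61+ plates differed in share, with 35.3% of cells on plate 1 and 68.2% on plate 2.

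Cpe, the peptide-processing enzyme, was counted in 18 of 39 CD61+ cells (46.2%, 30.1 to 62.8%) and in 4 of 40 CD61- cells (10%, 2.79 to 23.7%). Where it was counted it was never close to 1 count: 76.3 to 898 CPM with a median of 246 in CD61+ cells, and 50.5 to 235 CPM with a median of 121 in CD61- cells. Summed CPM was 117 and 212 on the CD61+ plates, against 14.8 and 17.9 on the CD61- plates. The ratio was 10.1 (9.58 to 10.7). Of the VCAM1+ cells 2 held Cpe, at 1290.0 and 457 CPM, and the first of these was the highest of all cells and gave 93.7% of that gate's counts.

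Cd200, the myeloid-restraining glycoprotein, had the largest share of cells of the 5 genes in both CD61 gates. It was counted in 34 of 39 CD61+ cells (87.2%, 72.6 to 95.7%), 27 of 40 CD61- cells (67.5%, 50.9 to 81.4%) and 5 of 9 VCAM1+ cells. The median cell had 312 CPM in the CD61+ gate and 110 CPM in the CD61- gate. The summed levels did not separate the gates: the CD61+ plates had 224 and 530 CPM and the CD61- plates 366 and 174 CPM, so the plates overlapped. The ratio of the gates was 1.32 (1.29 to 1.34, counting error), and on the log2 scale the 4 plate pairs ran from -0.71 to 1.61. Without CD61+ plate 2 the log2 ratio was -0.35, against 0.40 with both plates.

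**Figure D1:**
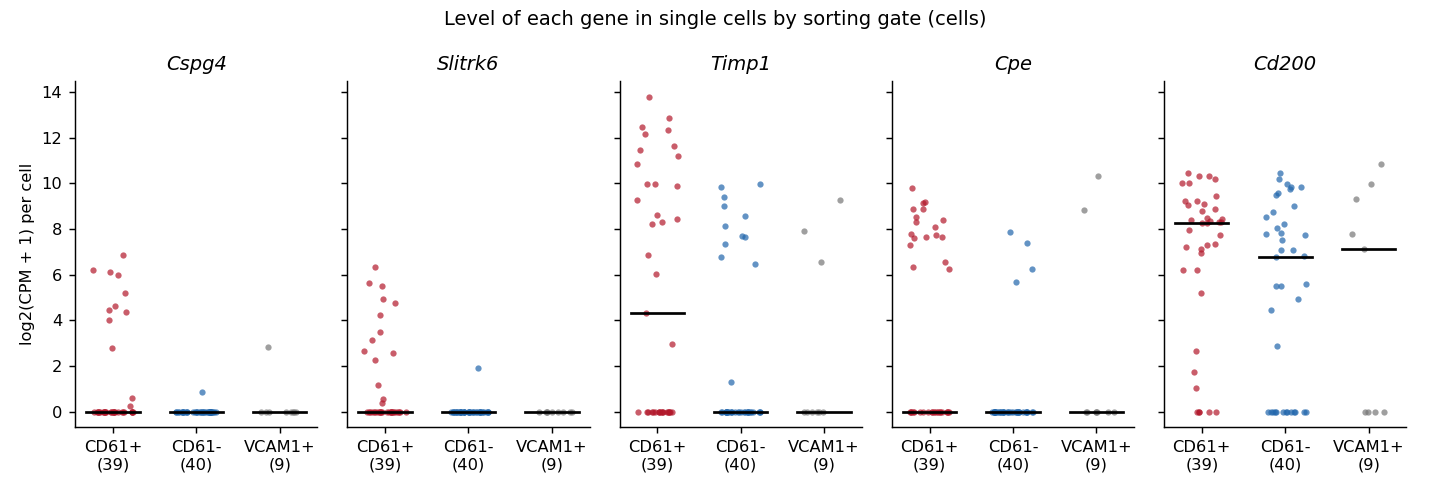
Level of each gene per cell as log2(CPM + 1), with 39 CD61+, 40 CD61- and 9 VCAM1+ cells as points and the gate median as a line. Cspg4, Slitrk6 and Cpe sit at 0 in most cells of each gate and rise off it mainly in CD61+ cells, Timp1 spreads over both CD61 gates, and Cd200 overlaps widely between them.

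**Figure D2:**
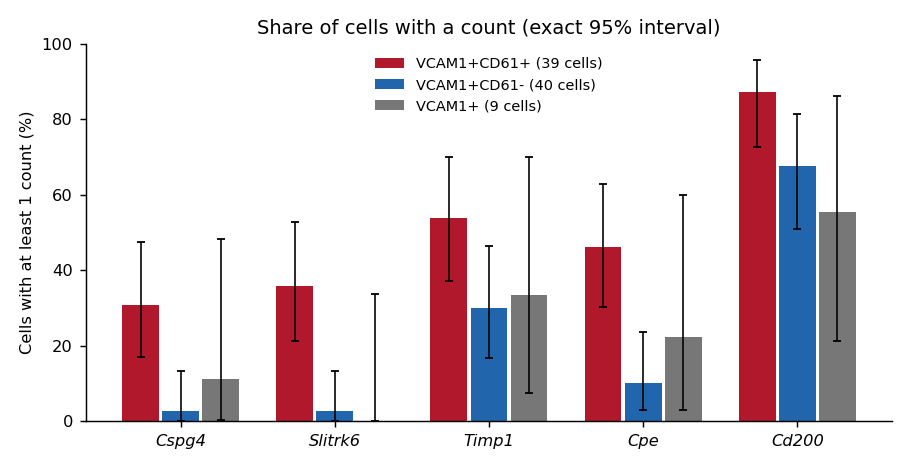
Percent of cells with at least 1 count of each gene in CD61+, CD61- and VCAM1+ cells, with exact 95% intervals for counting error. The intervals of CD61+ and CD61- cells are apart for Cspg4 (30.8% and 2.5%), Slitrk6 and Cpe, and overlap for Timp1 and Cd200.

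Thinning each cell to 1031887 counts left out 6 CD61+ and 3 CD61- cells. Cspg4 was then counted in 33.3% of CD61+ and 2.70% of CD61- cells, Slitrk6 in 39.4% and 2.70%, Timp1 in 60.6% and 27%, Cpe in 51.5% and 10.8%, and Cd200 in 90.9% and 70.3%. At full depth the same deeper cells had Cspg4 in 36.4% and Slitrk6 in 42.4% of CD61+ cells, so thinning lowered both shares a little. Their other shares were the same at full depth. The CD61+ shares of these deeper cells were above those of all CD61+ cells before thinning as well. To compare the genes with each other, summed CPM was divided by the length of exon sequence. Per kb of exon, the order in CD61+ cells was Timp1 at 1561, Cd200 at 113, Cpe at 62.6, Slitrk6 at 2.09 and Cspg4 at 1.12 CPM. In CD61- cells it was Timp1 at 127, Cd200 at 85.5, Cpe at 6.19, Slitrk6 at 0.0180 and Cspg4 at 0.00183 CPM per kb. The order of the 5 levels was the same in both gates, with Slitrk6 and Cspg4 far below the rest. The neighbours Cd200 (67.3 and 160 CPM per kb) and Cpe (44.7 and 81.1 CPM per kb) overlapped between the CD61+ plates, and Slitrk6 (0 and 0.0422) and Cspg4 (0.00318 and 0) between the CD61- plates. Timp1 (111 and 148) and Cd200 (110.1 and 52.4) nearly met between the CD61- plates. The other neighbours in the order were apart on both plates of a gate. In VCAM1+ cells the levels were 112 for Timp1, 99.2 for Cd200, 91.7 for Cpe, 0.0893 for Cspg4 and 0 for Slitrk6, in CPM per kb.

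The 5 genes are described here by cell classes from clustering of the 88 assigned cells, in which they were not among the variable genes used. They had been chosen with osteoblast genes of these same cells, and such genes also name the osteolineage class. Shares by class are therefore a description and no check of a restriction to the osteolineage, and the same shares over all genes were not computed. One cluster of 16 cells (13 CD61+, 2 CD61- and 1 VCAM1+) was osteolineage-like by its marker genes and was led by Dmp1, Ifitm5, Col13a1 and Bglap. The smooth muscle gene Acta2 and the cartilage gene Col2a1 were also among its top 10 genes by fold. A further 38 cells, in 2 clusters, were CAR cell-like by their mean level of the CAR cell list, although none of that list was among their top 10 genes by fold. Another 9 cells were endothelial-like with the fibroblast genes Pi16 and Cd34 also leading. A total of 25 cells stayed unnamed. In 12 of them both osteolineage and CAR cell genes were above the other cells. In the other 13 the fibroblast gene Fn1 was among the leading genes and no CAR cell gene was. All 20 CAR cell genes were still counted in 50% or more of these 13 cells. Their mean log2(CPM + 1) was 6.69 there, against 6.16 in the other cells. Fibroblast genes had a mean of 1.64 in the 13 cells and 2.11 in the other cells. The class names were rebuilt from expression and are not the authors' own.

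Cspg4 was counted in 13 of the 16 osteolineage-like cells (81.3%, 54.4 to 96.0%), in 1 unnamed cell and in 0 of 38 CAR cell-like cells, which allows a share of up to 7.89%. The osteolineage-like cells held 99.9% of its counts. Slitrk6 was in 12 of the 16 and in 2 CAR cell-like cells, with 87.5% of its counts in the cluster. Cpe was in all 16, in 8 unnamed cells and in none of the 38 CAR cell-like cells, with 84.3% of its counts in the cluster. Timp1 and Cd200 were in all 16 but were not restricted to them. Timp1 was also counted in 12 of 38 CAR cell-like cells (31.6%), although 80.0% of its counts were in the osteolineage-like ones. Cd200 was counted in 28 of 38 (73.7%), and 43.1% of its counts were in the osteolineage-like cells. Of the 25 unnamed cells, 18 held Cd200, 8 held Cpe and 7 held Timp1. The class depends on the settings. At resolution 0.5 it had 31 cells, with Cspg4 in 45.2%, Slitrk6 in 38.7%, Timp1 in 64.5%, Cpe in 67.7% and Cd200 in 83.9% of them. With 1000 variable genes it had 26 cells, with the genes in the same order in 53.8, 50, 76.9, 92.3 and 96.2%. Without any listed gene among the variable genes it had 23 cells in 2 clusters, with 60.9, 56.5, 82.6, 91.3 and 100%.

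Beside one another, the genes marked overlapping sets of cells, most of which were not nested. All 14 cells with Cspg4 also had Cpe and Cd200, 13 had Timp1, and 9 had Slitrk6. The 14 Cspg4 cells were 58.3% of the 24 Cpe cells. Of the 15 Slitrk6 cells, 13 had Timp1, 12 had Cpe and 15 had Cd200. Timp1 and Cpe met in 20 cells, which were 55.6% of the 36 Timp1 cells and 83.3% of the Cpe cells. Cd200 was in 23 of the 24 Cpe cells, but also in 66 of all 88 cells.

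Across the 88 cells, which differ in gate, plate and depth, Spearman's rho was 0.73 between Cspg4 and Cpe, 0.62 between Timp1 and Cpe, 0.59 between Cspg4 and Timp1 and 0.58 between Cspg4 and Slitrk6. Pairs with Slitrk6 and either Cpe or Timp1 had 0.54 and 0.52. Cd200 had lower values, from 0.32 with Cspg4 to 0.42 with Cpe. In each pair without Cd200, most of the cells had no count of either gene.

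Counted over Cspg4, Slitrk6, Timp1 and Cpe, 9 cells held all 4 genes, 7 held 3, 6 held 2, 20 held 1 and 46 held none. All 9 cells with the 4 genes were CD61+, whereas the 46 without any were 13 CD61+, 28 CD61- and 5 VCAM1+ cells. The 16 cells with 3 or 4 of them were exactly the 16 of the osteolineage-like cluster. With none, 1, 2, 3 and 4 genes, the median of Spp1 was 0.671, 2.52, 6847, 54291 and 191319 CPM. The 9 cells with the 4 genes had 19017 to 330812 CPM of Spp1, above most but not all of the others, since the 46 cells with none reached 22656 CPM. The number of genes detected per cell also moved with this count, with a median of 5654 in cells with all 4 and 4061 in cells with none, and its part in the result was not tested.

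**Figure D3:**
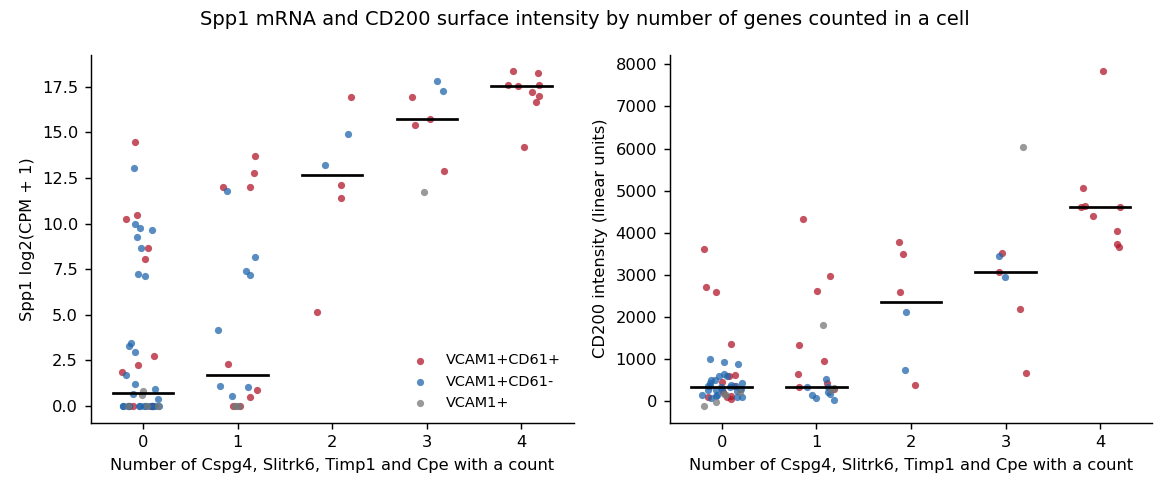
Spp1 as log2(CPM + 1) and surface CD200 intensity in 88 cells by how many of Cspg4, Slitrk6, Timp1 and Cpe were counted, with one point per cell and the median as a line. The 9 cells with all 4 genes had a median of 191319 CPM of Spp1 and a CD200 intensity of 3675 to 7834, while the 46 cells with none had medians of 0.671 CPM and 329.5.

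Spp1, which encodes osteopontin, separated cells with a member from cells without one in most but not all cases. Cells with Cspg4 had a median of 141015 CPM of Spp1 (2743 to 330812), and cells without it 2.45 CPM (0 to 229244). For Slitrk6 the medians were 128374 CPM with and 2.29 CPM without a count. For Cpe they were 79344 CPM (0 to 330812) with and 0.996 CPM (0 to 22656) without, so high Spp1 without Cpe stopped at 22656 CPM. Timp1 had 6022 and 1.14 CPM, and Cd200 505 and 0.991 CPM, in cells with and without a count. Spp1 itself reached 67350 summed CPM in CD61+ cells, against 12267 in the CD61- gate, so part of each contrast runs along the gate.

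By rank over the 88 cells, rho with Spp1 was 0.68 for Cpe, 0.57 for Cspg4, 0.57 for Timp1, 0.55 for Slitrk6 and 0.43 for Cd200. Only 0.577% of 12311 genes counted in at least 10 cells reached 0.5, among them all of these but Cd200. Cpe had rank 3 of all genes. The choice of the genes had fixed such ranks in part. Within single plates Cpe had 0.78 and 0.73 on the CD61+ plates and 0.49 and 0.57 on the CD61- plates. Cspg4 had 0.64 and 0.71 on the CD61+ plates, and 0.36 on CD61- plate 1 from its lone cell there. Slitrk6 had 0.48 and 0.67 on the CD61+ plates and 0.42 on CD61- plate 2, also from a lone cell. Timp1 had 0.52 and 0.72 there, and 0.51 and 0.53 on the CD61- plates, and Cd200 ran from 0.15 to 0.56 over the 4 plates. Each of these values was above 0.

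Ordered by Spp1, the top 30 cells, at 1220.1 CPM or more, held Cspg4 in 46.7%, Slitrk6 in 43.3%, Timp1 in 73.3%, Cpe in 76.7% and Cd200 in 100% of cells. The lowest 29 cells, at 0.511 CPM or less, held them in 0, 0, 20.7, 3.45 and 65.5%; a count of 0 in 29 cells allows a share of up to 10.3%. The top 30 had 23 CD61+ and 6 CD61- cells. Cspg4 was in 12 of those 23 and 1 of those 6, Slitrk6 in 12 and 1, Timp1 in 16 and 5, and Cpe in 18 and 4. At high Spp1, then, Cpe and Timp1 were found in most cells of either gate, while Cspg4 and Slitrk6 were each in 1 of 6 CD61- cells, too few to set apart from the CD61+ share.

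Col1a1, the alpha 1 chain of type I collagen, gave a similar order. Cells with Cspg4 had a median of 3195 CPM of Col1a1 and cells without it 64.3 CPM. Cells with Cpe had 1400.1 CPM and cells without it 50.1 CPM. Over the 88 cells, rho with Col1a1 was 0.62 for Cpe, 0.58 for Cspg4, 0.47 for Timp1, 0.44 for Slitrk6 and 0.42 for Cd200. On CD61- plate 2 it was 0.37 for Slitrk6, 0.14 for Cpe, 0.10 for Cd200 and -0.06 for Timp1. On CD61+ plate 1 it was 0.68 for Cpe, 0.66 for Timp1, 0.49 for Cspg4, 0.15 for Slitrk6 and 0.12 for Cd200, so which genes moved with Col1a1 varied by plate. The top 30 cells by Col1a1 (206 CPM or more) held Cspg4 in 43.3% and Cpe in 63.3% of cells, and the lowest 29 (21.3 CPM or less) in 0% and 3.45%.

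**Figure D4:**
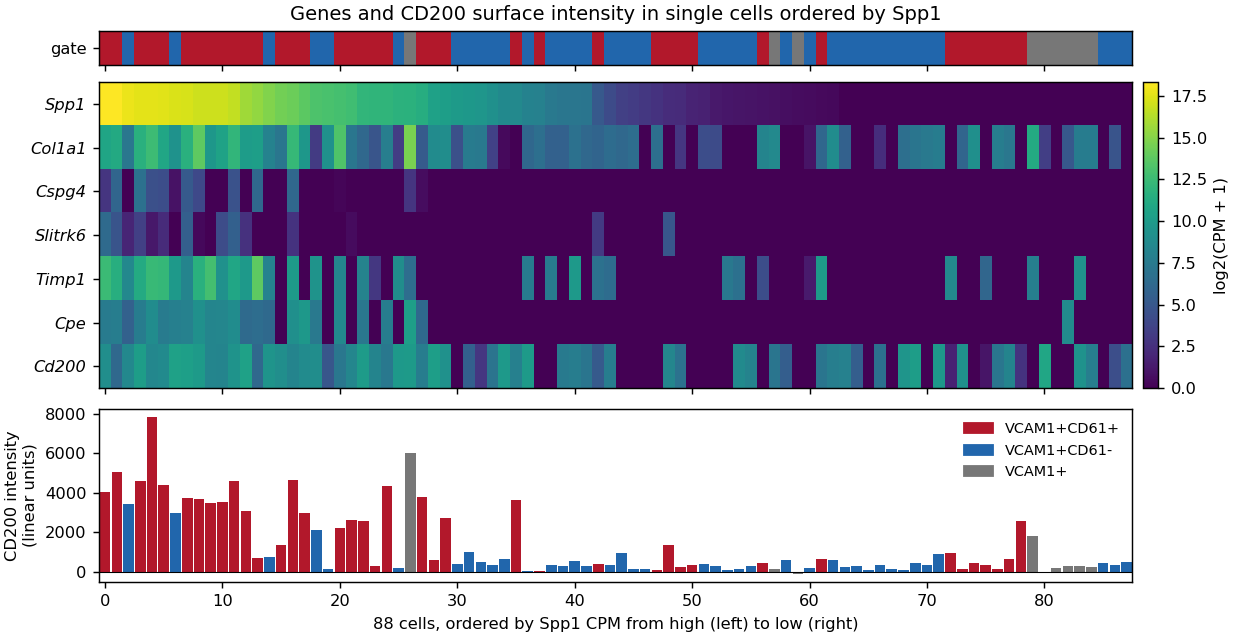
The 88 assigned cells ordered by Spp1 from high to low, with the gate as a strip, a heat map of log2(CPM + 1) for Spp1, Col1a1 and the 5 genes, and CD200 intensity as bars. All 14 Cspg4 cells are among the 30 cells with the most Spp1, Cpe has 23 of its 24 cells there, and Timp1 and Cd200 extend into cells with little Spp1.

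Timp1 was also found in cells with little Spp1, with 6 of its 36 cells among the lowest 29 cells by Spp1 and 8 among the middle 29. Single cells are named here after their values were seen. A CD61+ cell had 1009 CPM of Timp1 with 0.405 CPM of Spp1, and a VCAM1+ cell had 621 CPM of Timp1 with no Spp1 count. A CD61+ cell had 29.4 CPM of Slitrk6 with 3.93 CPM of Spp1 and a CD200 intensity of 1338, and another had 7.79 CPM of Slitrk6 with 34.6 CPM of Spp1 and an intensity of 394. A VCAM1+ cell had 457 CPM of Cpe with no Spp1 count and an intensity of 272. In the other direction, the VCAM1+ cell with 1290.0 CPM of Cpe had 3349 CPM of Spp1, 25753 CPM of Col1a1, the highest of all cells, and an intensity of 6042.

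Surface CD200, read by antibody fluorescence in arbitrary units, was set against each gene. Over the 88 cells, rho with the channel was 0.69 for Cpe, the highest of 12312 genes, then 0.58 for Cspg4, 0.55 for Slitrk6, 0.49 for Timp1 and 0.41 for Cd200, whose rank was 160. A value of 0.5 or more was reached by 0.544% of genes. The members were chosen with values of these same cells known, so their ranks and this share are descriptions and no test. Within plates Cpe had 0.63 and 0.83 on the CD61+ plates and 0.42 and 0.57 on the CD61- plates. Cd200 had 0.42 and 0.48 on the CD61+ plates and 0.27 and 0.08 on the CD61- plates. Cpe was thus above Cd200 on each of the 4 plates. Cspg4 was also above Cd200 on each plate where it was counted, with 0.55 and 0.71 on the CD61+ plates and 0.35 on CD61- plate 1. The last value came from a lone cell with Cspg4. Timp1 had 0.30 and 0.72 on the CD61+ plates and 0.13 and 0.03 on the CD61- plates, below Cd200 on all but CD61+ plate 2. Slitrk6, with 0.37 and 0.71 on the CD61+ plates, was below Cd200 on CD61+ plate 1. These differences were not tested.

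Cells with Cpe had a CD200 intensity of 272 to 7834 with a median of 3604, and cells without it -112 to 3612 with a median of 337. In CD61+ cells the 18 with Cpe had 679 to 7834 (median 3753.5) and the 21 without had 58 to 3612 (median 463), and no cell without Cpe exceeded the median of those with it. In CD61- cells the 4 with Cpe had 740, 2128, 2961 and 3456, and the 36 without had 20 to 998 (median 329.5), so that the groups overlapped by a single Cpe cell. Those 4 CD61- cells had 9297 to 229244 CPM of Spp1, against 0 to 8477 CPM in the 36 without Cpe. High surface CD200 and Cpe thus went together in both gates.

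For Cspg4 the median intensity was 4226.5 with a count (679 to 7834) and 360 without one (-112 to 4322). For Slitrk6 it was 3726 with and 359 without a count. Timp1 had 1973 with and 358.5 without, but within CD61- cells 337 with and 344.5 without, so that gate showed no such contrast for Timp1. For Cd200 mRNA the medians were 649 with and 272 without a count, and within CD61- cells 359 with and 272 without.

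Surface CD200 was also described by Cd200 mRNA and by the number of the other genes counted. Cells with 3 or 4 of the others and no Cd200 count were not found (0 cells), so the parts of Cd200 mRNA and of the others cannot be told apart there. The 16 cells with a Cd200 count and 3 or 4 of the other genes had a median intensity of 3890 (679 to 7834) and a median of 492 CPM of Cd200. The 20 cells with a Cd200 count and 1 or 2 of the others had a median intensity of 698.5. The 30 cells with a Cd200 count and none of the others had a median of 344.5 (-16 to 3612), at a median of 203 CPM of Cd200. Without a Cd200 count, 6 cells with 1 or 2 of the others had a median of 304.5 and 16 cells with none had 220 (-112 to 923). Most cells with Cd200 mRNA but none of the other genes were thus close in surface signal to cells without Cd200 mRNA.

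**Figure D5:**
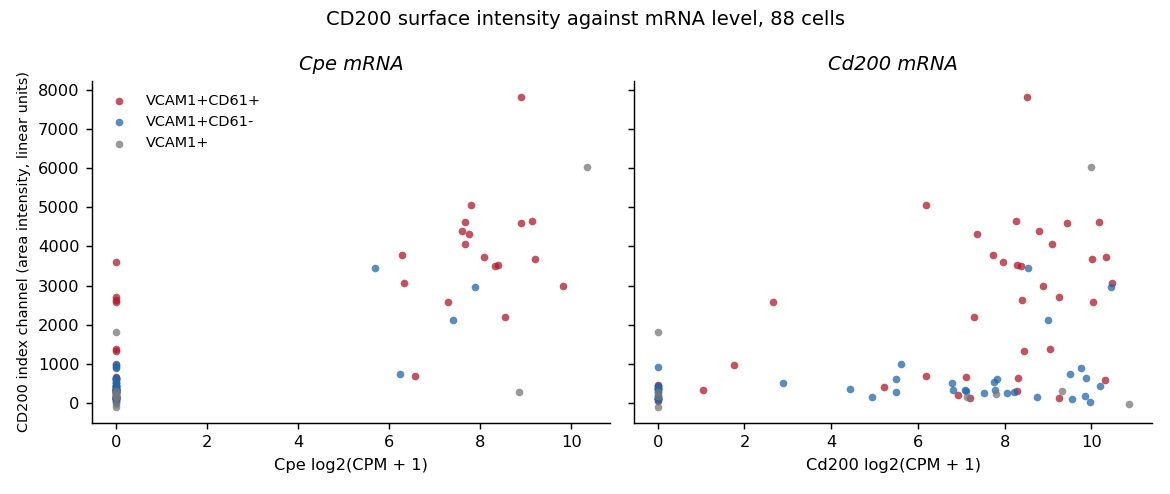
Surface CD200 intensity in arbitrary units against Cpe and against Cd200 mRNA, both as log2(CPM + 1), for the 88 cells by gate. Spearman's rho was 0.69 for Cpe and 0.41 for Cd200; many cells with Cd200 mRNA lie at an intensity under 1000, while all but 2 of the cells with Cpe and a gate label of CD61+ or CD61- lie above it.

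The CD61 channel is what defines the gates, so its tie to the genes over all cells includes the gate contrast: rho was 0.49 for Cpe, 0.47 for Cspg4, 0.46 for Slitrk6, 0.41 for Timp1 and 0.25 for Cd200. On single plates it varied. Cspg4 had 0.14 and 0.54 on the CD61+ plates and -0.05 on CD61- plate 1. Cpe had 0.26 and 0.23 on the CD61+ plates and -0.003 and 0.44 on the CD61- plates. Slitrk6 had 0.22 and 0.13 on the CD61+ plates and 0.36 on CD61- plate 2, and Timp1 ran from 0.22 to 0.59 over the 4 plates. The values for Cspg4 on CD61+ plate 2 and for Timp1 on CD61- plate 2 were thus above those over all cells. Forward scatter, a proxy for cell size, also moved with the genes, with rho of 0.46 for Cpe, 0.43 for Cspg4, 0.38 for Timp1, 0.37 for Slitrk6 and 0.13 for Cd200. Total counts per cell had a rho of 0.12 or less with each gene over all cells, but within the CD61+ plates it was 0.42 and 0.30 for Cspg4, 0.22 and 0.53 for Slitrk6 and 0.40 and 0.34 for Timp1. Genes detected per cell had a rho over all cells of 0.36 for Slitrk6, 0.34 for Cspg4, 0.23 for Timp1, 0.20 for Cpe and 0.06 for Cd200. The part of cell size, depth and genes detected in the results was not tested.

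The genes whose level over the 88 cells was most like each member came mostly from bone matrix and mineralisation. For Cspg4 they were Col13a1 (a transmembrane collagen) at 0.79, Aqp1 (a water channel) at 0.77, Ccn4 (a matricellular Wnt target) at 0.74, Dlx3 (a homeobox factor) at 0.74 and Panx3 (a channel of osteoblasts and chondrocytes) at 0.73. For Slitrk6 they were Bmp8a at 0.71, Col13a1 at 0.70, and Dmp1 (an osteocyte matrix protein), Col2a1 (a cartilage collagen) and Cyb561 at 0.69. Timp1 had Bmp8a at 0.66, Col13a1 at 0.65, Cpe at 0.62, and Insc and Fam20c (a kinase of secreted matrix proteins) at 0.61. Cpe had Bglap3 and Car3 at 0.79, Col13a1 at 0.78, and Bglap and Bglap2 at 0.77; the Bglap genes, which encode osteocalcin, are near-identical copies whose reads may have been split between them. Col13a1 was thus on 4 of the 5 lists. Cd200 had lower values with its neighbours, among them Fap at 0.49, Serpine2 and Bglap3 at 0.47 and Rpl38 at 0.46.

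Other genes of the members' pathways were compared by gate, counting a gene as higher or lower where its summed CPM differed at least 2-fold and both plates of one gate lay beyond both of the other. Of the 14063 genes, 12.9% were higher and 10.6% lower by this rule in CD61+ cells, and the median log2 ratio of all genes was 0.0084. Of 16 TIMP and metalloproteinase genes 5 were higher and 4 lower, with a median log2 ratio of 0.57. Mmp13, the collagenase of bone and cartilage, had 3671 CPM in CD61+ and 550.1 CPM in CD61- cells. Mmp2, a gelatinase, had 239 and 48.4 CPM, Timp3 60.8 and 14, Mmp16 63.0 and 18.6, and Mmp9 5.89 and 1.10. Mmp9 was counted in only 3 CD61+ and 2 CD61- cells. Mmp23 was at 320.4 CPM in CD61+ and 714 CPM in CD61- cells, Mmp11 at 74.8 and 151, and Mmp19 at 9.38 and 22.2, all lower in CD61+ cells. Timp4 had no count in CD61+ cells and 2809 counts in CD61- cells, from 5 cells. Timp2 (394 CPM in CD61+ and 362 CPM in CD61- cells) and Cd63, a TIMP1 receptor component (4566 and 2951 CPM), were not past the rule.

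Among 14 partners of CSPG4 and other chondroitin sulfate proteoglycans, 3 were higher and 1 lower, with a median log2 ratio of 0.08. Col6a3, a chain of the NG2 ligand type VI collagen, had 96.6 CPM in CD61+ and 11.9 CPM in CD61- cells. Plat, the tissue plasminogen activator, had 2.22 and 0.0435 CPM, counted in 5 CD61+ and 2 CD61- cells. Cspg5 (0.339 CPM in CD61+ and 0.163 CPM in CD61- cells) and Ncan (0.0391 and 0.196 CPM) were past the rule at very low levels. The other collagen VI chains were not past it, with 196 CPM in CD61+ and 232 CPM in CD61- cells for Col6a1 and 136 and 173 CPM for Col6a2, nor were the abundant Itgb1 (290.2 and 245 CPM) and Sdcbp (157 and 132 CPM). Of the SLITRK family and its LAR-type receptor phosphatases 3 could be compared, and 2 were higher: Ptprs at 68.5 CPM in CD61+ and 18 CPM in CD61- cells, and Ptprf at 29.8 and 11.5 CPM. Ptprd stood at 122 CPM in CD61+ and 148 CPM in CD61- cells.

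Among 11 carboxypeptidase E relatives and prohormone-processing genes, 2 were higher and none lower, with a median log2 ratio of -0.22. Aebp1, a carboxypeptidase-like matrix protein, had 93.4 CPM in CD61+ and 23.2 CPM in CD61- cells, and Pcsk6, a proprotein convertase, was counted in 7 CD61+ cells with 708 counts, against no count in the CD61- gate. Pam, the peptide-amidating enzyme, was at 128 CPM in CD61+ and 190.1 CPM in CD61- cells, Cpxm1 at 83.7 and 97.3, and Pcsk7 at 28.7 and 49.9, none past the rule. Of 8 genes of CD200 reception, signalling and related checkpoints, 2 were higher and 1 lower, with a median log2 ratio of -0.15. Cd276 (B7-H3) had 50.5 CPM in CD61+ and 8.78 CPM in CD61- cells, Cd200r2 0.991 and 0.294 CPM, and Cd274 (PD-L1) 0.0782 and 0.196 CPM. Cd47 (208 CPM in CD61+ and 309 CPM in CD61- cells), Rasa1 (32.8 and 39.8 CPM) and Dok1 (29.6 and 41.2 CPM) were not past the rule. The shares of genes past the rule in these short lists are set beside the shares of all genes and not tested.

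Markers of other cell types were summed per cell in the 16 cells with 3 or 4 of Cspg4, Slitrk6, Timp1 and Cpe and in the 46 with none. The osteolineage list had a median of 202324 CPM (63771 to 558908) in the 16 and 11112 CPM (1.02 to 34567) in the 46, and the ranges did not overlap. Spp1 belongs to this list and alone had a median of 141015 CPM in the 16, so the contrast in large part repeats the one for Spp1 above. The 4 genes that define the 16 had also been chosen with osteoblast genes. The CAR cell list had 1025 CPM (194 to 4133) in the 16 and 42252 CPM (14.6 to 74770) in the 46. Pericyte and smooth muscle genes, which matter for Cspg4 as a pericyte gene, had 18.1 CPM (0 to 2756) in the 16 and 7.27 CPM (0 to 1369) in the 46. Des and Kcnj8 were at 0 in the 16, but Acta2 was among their leading genes. Of the 8 genes of this list, 2 were counted in 50% or more of the 16 cells. Their mean log2(CPM + 1) over the list was 0.527, against 0.664 in all other assigned cells. Endothelial genes had 0.0828 CPM (0 to 454) in the 16 and 37.8 CPM (0 to 20591) in the 46, and Cdh5, Kdr, Egfl7, Plvap, Emcn, Tek, Cldn5 and Esam were at 0 in the 16. Fibroblast genes had a median of 1185 CPM (359.9 to 12048) in the 16 and 207 CPM (0 to 63767) in the 46, whereas the counts of each set pooled gave 2303 CPM in the 16 and 3868 CPM in the 46. Schwann cell genes had 21.6 CPM (0 to 181) in the 16 and 0.348 CPM (0 to 631) in the 46, and pooled 42.8 and 66.7 CPM. Chondrocyte genes had 141 CPM (7.54 to 2718) in the 16 and 0 CPM (0 to 4522) in the 46. Osteoclast genes had 142 CPM (46.9 to 364) in the 16 and 26.6 CPM (0 to 479) in the 46, and megakaryocyte and platelet genes 2.70 CPM (0 to 154) and 0 CPM (0 to 101). Hematopoietic and erythroid genes had a median of 0 in both, and pooled 26.4 and 30.9 CPM in the 16 and 289 and 139 CPM in the 46. Also at 0 in the 16 were Grem1 of the CAR cell list, Clec3b of the fibroblast list, Mbp of the Schwann cell list, and Coro1a, Cd79a and Cd74 of the hematopoietic list. The part of fibroblast and chondrocyte genes in the results was not tested.

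By gate, the most abundant osteolineage genes were Spp1, given above, Sparc (osteonectin) with 9748 CPM in CD61+ and 5352 CPM in CD61- cells, and Ibsp (bone sialoprotein) with 7359 and 5010 CPM. The CAR cell list was led by Cxcl12 (10032 CPM in CD61+ and 21914 CPM in CD61- cells), Hp (1823 and 5462 CPM) and Lpl (964 and 3628 CPM). The pericyte list was led by Acta2 (52.9 and 5.24 CPM), Abcc9 (30.4 and 28 CPM) and Kcnj8, which was counted in 2 CD61+ cells and 1 CD61- cell. The endothelial list was led by Plvap (288 and 31.7 CPM), Ly6c1 (272 and 0.0762 CPM, counted in 4 CD61+ cells and 1 CD61- cell) and Eng (131 and 106 CPM). The fibroblast list was led by Dcn (918 and 191 CPM), Gsn (751 and 81.7 CPM) and Ly6a (555 and 40.5 CPM, counted in 5 CD61+ cells and 1 CD61- cell). By the 2-fold rule, 10 of 20 osteolineage genes were higher in CD61+ cells and 1 lower, 10 of 20 CAR cell genes were lower and none higher, 7 of 8 fibroblast genes and 1 of 7 endothelial genes were higher, and none of 5 pericyte genes passed it either way. None of the 9 endothelial-like cells held Cspg4, Slitrk6 or Cpe, which allows a share of up to 33.3% for each.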

How the data were processed

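The submitters' processing notes name kallisto 0.43.0, R 3.5.1 and genome build mm10, with an annotation not given in the sources used here. What the authors deposited for each gene in each cell are estimated counts (expected counts) without normalization, and 0 values are not whole. Fluorescence from the sort was deposited as linear intensity with some values below 0, and nothing used here says how it was compensated. Area intensities were used, and 40 columns of values per cell were not used.

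Members and gene lists were chosen with earlier results of these data known. Groups came from the gate labels; 3 cells with conflicting labels were left out, no cell was removed for quality and no doublet caller was run. With each gate as 1 sample no test was made: sums had exact Poisson intervals, ratios the exact binomial split and shares Clopper-Pearson intervals, all at 95%. Genes entered gate ratios with at least 10 counts in at least 5 cells (14063), and sums under 3 counts per gate or plate were raised to 3 before a log2 ratio. Spearman's rho used CPM per cell.

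Clustering (scanpy 1.11.5, igraph 0.11.9) used log2(CPM + 1) of 2000 variable genes without the members, 15 principal components, 10 neighbours and resolution 1. A name needed 3 markers with a count in 50% of the cluster's cells and a mean above the other cells; ties between lists went to the larger number of top 10 genes by fold and then to the larger mean difference, and a cluster stayed unnamed where another list had more of the top 10 or where none was there and more than 1 list was high. Where a share is 0, its limit is 3 cells of the number looked at. Named genes were the 5 members, the 5 highest by rho with each among genes counted in at least 10 cells, of each pathway list the 4 most abundant and those past the 2-fold rule, and of each marker list those at 0 and the 3 most abundant (given for the 5 lists that hold cells of these gates); some genes that the rule names are not reported here. Positions came from GENCODE vM21 and promoters from RefSeq (GRCm38.p6). Alternatives were other scalings (edgeR 4.0.16, DESeq2 1.42.0 size factors and mean CPM), other detection limits, no filter, thinning, other clusterings, each plate left out and, chosen after seeing the data, leaving out the endothelial-like cells and the cluster with the fewest genes per cell. Steps ran in Python 3.11.15 (scipy 1.17.1) and R 4.3.3 and were checked on simulated counts.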

Additional observations from a re-analysis of the deposited data

Results flagged for a closer look

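Among the 9 VCAM1+ cells, one cell stood far from the others for several measures. Its Cspg4 level was 6.13 CPM where the other 8 cells had none, its Cpe level was 1290.0 CPM with the next at 457 CPM, and its CD200 intensity was 6042 with the next at 1818. A different VCAM1+ cell had the highest Timp1, at 621 CPM with the next at 241 CPM; it had no Spp1 count and a CD200 intensity of 311. By the rule used, chance marks about 1 in 20 groups, and genes at 0 in most cells are marked readily.

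The 3 cells with conflicting labels, which entered no comparison, also held counts of the genes. Slitrk6 had 6 counts, all in one cell with 2.35 CPM, 803 CPM of Spp1 and a CD200 intensity of 308. Timp1 had 767 counts, from one cell at 251 CPM and another at 41.5 CPM. Cd200 had 201 counts in the cell with 41.5 CPM of Timp1, where it reached 95.8 CPM beside 1594 CPM of Spp1 and an intensity of 458. Cspg4 and Cpe had no count in these cells.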

How the results depend on the processing

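No paired analysis was possible because no test was made and no animal is named. Log2 ratios under edgeR's TMM, DESeq2's size factors or mean CPM moved by less than the spread between plate pairs. Asking for 4 counts or for 10 CPM left 0% of CD61- cells with Cspg4; 10 CPM left Slitrk6 in 17.9% of CD61+ and 0% of CD61- cells. Without each plate in turn, CD61- shares ran from 0 to 4.17% for Cspg4 and from 0 to 6.25% for Slitrk6, and the CD61+ share of Timp1 from 35.3 to 68.2%. The log2 ratio then ran from 7.44 to 9.12 for Cspg4 (8.68 with all plates, 7.36 with thinned cells), from 5.63 to 7.28 for Slitrk6 (6.86) and from -0.35 to 1.10 for Cd200 (0.40), the lowest without CD61+ plate 2. Single plates gave other rho values. With Spp1 they were 0.36 for Cspg4, 0.49 for Cpe and 0.15 for Cd200 on CD61- plate 1, and 0.72 for Timp1 on CD61+ plate 2. With the CD200 channel they were 0.35 for Cspg4, 0.13 for Timp1 and 0.42 for Cpe on CD61- plate 1, and 0.029 for Timp1 and 0.085 for Cd200 on CD61- plate 2. The sign turned for Cspg4 (-0.045) and Cpe (-0.0027) with the CD61 channel on CD61- plate 1, and for Timp1 with Col1a1 (-0.060) on CD61- plate 2; the cause was not tested. With no filter, 10.5% of genes were at least 4-fold higher in CD61+ cells. Leaving out the endothelial-like cells and the cluster with the fewest genes gave CD61+ shares of 40, 46.7, 63.3, 56.7 and 93.3% for Cspg4, Slitrk6, Timp1, Cpe and Cd200, and CD61- shares of 3.03, 3.03, 30.3, 12.1 and 72.7%. A cell with no count is not shown to lack the RNA.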
